A study of Homo sapiens with 12 samples.

Results

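The expression state of untreated A375 cells was described from the 3 libraries of the vehicle group, which are 3 of the 12 libraries of the series, over all 23705 genes of the deposited count table. A375 is an established human melanoma line whose labels give skin as the tissue source and a metastatic melanoma as the cell type. The cells were at passages 30 to 32, were grown in DMEM with 10% serum, and received only DMSO at a dilution of 1 in 10000 for 24 h. Each library stands for 1 of 3 independent experiments, within which the RNA of technical replicates was pooled. The other 9 libraries came from cells given an agonist of the nuclear receptor PPARγ, an antagonist of it or both, and were not used. Total counts were 8687191, 8319455 and 8411073 in libraries 1, 2 and 3. Wherever 3 values stand in a row they belong to libraries 1, 2 and 3, and a mean is given with its SD over the 3 libraries (n = 3). Since there is only 1 group, no test was run and no p-value is given.

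Melanocytes arise from the neural crest, and their identity rests on the transcription factors *SOX10* and *MITF*, of which *MITF* switches on the enzymes and structural proteins of the pigment organelle. Melanoma cells can occupy states along an axis from this differentiated program to an undifferentiated program, in which pigment genes are silent and the receptor tyrosine kinase *AXL*, neural crest genes and matrix genes are expressed. Signals from growth factor receptors pass through RAS, RAF, MEK and ERK kinases, and PPARγ, encoded by *PPARG*, is a ligand-dependent transcription factor best known from fat cells.

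Levels are given as the deposited count, as the count over the library's total (CPM, of which 10000 make 1%), and as CPM per kb of the gene's longest annotated transcript, the scale on which genes are compared with each other. A gene was called expressed when it had at least 1 CPM in each library, and at or under the floor when it had at most 3 counts in every library. By this rule 12688 genes were expressed, which is 53.52% of all genes and, for protein-coding genes alone, 63.04% (11924 of 18916). A further 2405 genes lay between both limits, 8612 were at or under the floor, and 5807 of the latter had no count in any library. A count of 0 allows a level of up to 0.345, 0.361 and 0.357 CPM, and these limits cover counting error only. Among long noncoding RNAs 409 of 1910 were expressed, among transcribed pseudogenes 235 of 910 and among microRNA genes 7 of 1293. The share of protein-coding genes is the one beside which the count of every gene list is to be read. Protein-coding genes held 98.8% of the counts, and the table had no gene of the mitochondrial genome.

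**Figure D1:**
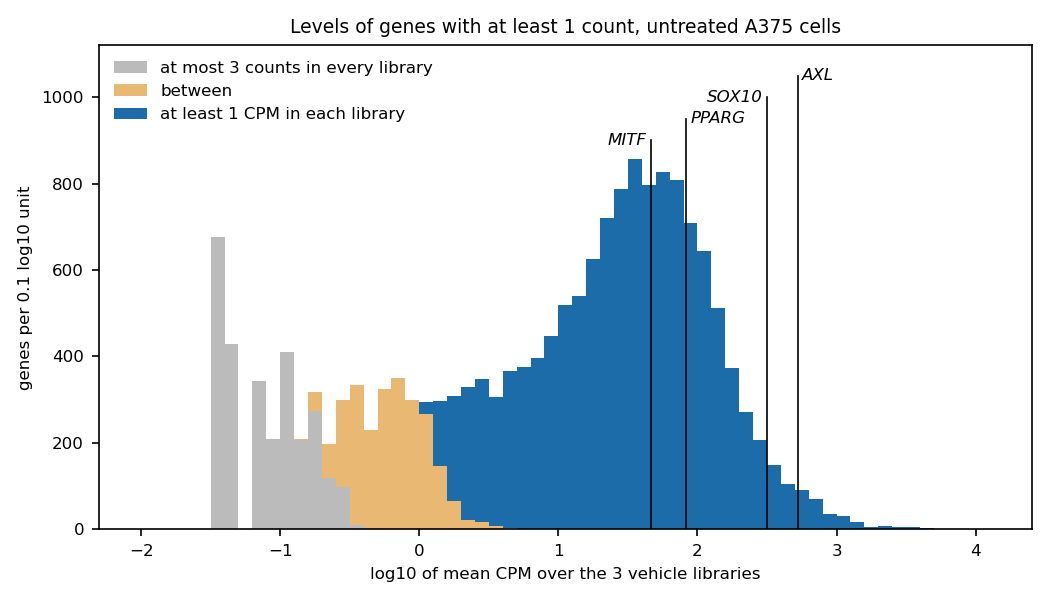
Number of genes (vertical axis) by the log10 of mean CPM over the 3 vehicle libraries (horizontal axis), stacked by class, with vertical lines at MITF, PPARG, SOX10 and AXL. Genes with no count are not drawn, and the 4 marked genes sit at mean levels of 46.5, 83.1, 314 and 525 CPM, within or above the bulk of the expressed genes.

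The scale per kb depends on which transcript stands for the gene, and the counts do not show which transcripts the cells made. The median length of a gene's annotated transcripts was also used in place of the longest. Of the 967 expressed genes of all lists examined, 726 then rose by more than 1.5-fold, and the median gene by 2.54-fold. Some of these lists are not described here. Genes named beyond the rule of choice, such as *SOX9*, *BRAF* and *FOXO1*, were chosen after their values were seen. Where the leading gene of a family is named and another leads by median length, this is stated. Counts of some genes are also uncertain because near-identical copies share reads: 42 of 318 list members at or under the floor had at least 50% of their 32-base stretches in a transcript of another gene (13.2%), against 48 of 967 expressed members (4.96%). Genes that every growing cell uses were among those listed near 0. *RPL21*, a ribosomal protein gene, had 1, 0 and 0 counts, and *MIF* had none in any library. A gene listed at 0 is thus not shown to be silent, and because the strand used in counting is not stated, antisense partners cannot be told apart.

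Of the 3 libraries, library 2 stood apart from the other 2. Across the expressed genes, which are not independent replicates, the correlation of log2 CPM was 0.990 between libraries 1 and 3, 0.984 between 1 and 2, and 0.977 between 2 and 3. The highest library exceeded the lowest by at least 2-fold in 761 expressed genes, or 5.998%. Of these, 419 were highest in library 2, 275 in library 3 and 67 in library 1. Without library 2 the number of such genes was 159, without library 3 it was 344, and without library 1 it was 598. Over the 9729 genes whose mean reached 10 CPM, the median SD was 8.304% of the mean. This spread holds both the differences between separate cultures and the counting error. The counting error expected from the mean count had a median of 4.85%. The median SD of 3 libraries with this error alone would lie below that value. The cause of the difference between libraries was not tested.

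Among those genes, the 10 with the largest SD relative to the mean were all highest in library 2 and lowest in library 3, an order found in 2292 of all 12688 expressed genes. *BASP1*, which encodes a membrane-bound protein of growing nerve endings, had 55, 398 and 4 counts, and its mean of 9.70 CPM per kb became 1.81 without library 2. *IL1RL1*, the receptor of interleukin-33, had 214, 818 and 66 counts, or 4.07 CPM per kb without library 2 against 10.9 with it. The cytokine gene *IL18* had 41, 269 and 23 counts, and the membrane peptidase gene *MME* had 79, 286 and 21. In each of these genes library 2 was the highest, and libraries 1 and 3 also differed from each other. The remaining 6 were *IGFN1*, *SPANXC*, *SH3GL2*, *MPP7*, *MAL2* and *LINC02582*, and of these *SPANXC* shares 94.1% of its stretches with other genes.

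No single gene took a large part of the counts. The most abundant gene, the glycolytic enzyme gene *GAPDH*, took 0.639%, 0.752% and 0.680% of all counts, the 100 most abundant genes of each library took 15.1%, 15.8% and 15.6%, and 1124, 1107 and 1107 genes made up 50% of the counts. By mean CPM, *GAPDH* (6905 ± 571 CPM) was followed by the glycolytic *ENO1* (4665 ± 263), the chaperone *HSPA8* (4422 ± 598), the cytoskeletal actin *ACTB* (4320.2 ± 41.9) and the pyruvate kinase *PKM* (3871 ± 196). The intermediate filament *VIM*, the actin *ACTG1*, the chaperone *HSP90AA1*, the ribosomal *RPS6* and the RNA-binding *HNRNPA2B1* completed the first 10. *SERPINE2*, a secreted inhibitor of serine proteases, ranked next at 2826 ± 541 CPM, with 20826, 22015 and 28877 counts. It was the most abundant secreted product among the first 20, and its highest library was library 3.

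Per kb, the order changed in favour of short transcripts. *GAPDH* led at 3682 ± 305 CPM per kb, followed by the calcium-binding *S100A6* at 3018 ± 519.9, the ribosomal *RPS6* and *RPL8* at 2397 ± 160.2 and 2036 ± 198, *ACTB* at 1924 ± 18.7 and the actin-sequestering *TMSB10* at 1904 ± 381. The iron storage gene *FTL*, at 1202 ± 255, and the galectin *LGALS1*, at 1124 ± 164, were also among the first 20. *S100A6* had 14188, 19059 and 18243 counts and *TMSB10* had 7060, 9657 and 7225. For both, library 2 was the highest and library 1 the lowest. Reads of *GAPDH* and *RPS6* can be split with copies elsewhere, since they share 48.4% and 38.5% of their stretches with other genes.

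The 4 marker genes were all expressed, in unequal amounts. *AXL* had 5089, 4420 and 3847 counts, a mean of 525 ± 64.5 CPM and 111 ± 13.6 CPM per kb. *SOX10* had 2641, 1744 and 3615 counts, 314 ± 110.5 CPM and 109 ± 38.4 CPM per kb. *PPARG* had 697, 756 and 658 counts, 83.1 ± 6.79 CPM and 41.0 ± 3.35 CPM per kb. The level of *MITF* was the lowest of the 4, with 428, 476 and 277 counts, 46.5 ± 12.4 CPM and 9.65 ± 2.57 CPM per kb. Per kb, the 3 values of *AXL* (124, 112 and 96.6) and of *SOX10* (106, 72.8 and 149) overlapped, *PPARG* lay below both in every library and *MITF* lay below *PPARG* in every library. *SOX10* was lowest in library 2 and highest in library 3, while *MITF* was highest in library 2 and lowest in library 3. Without library 2 the mean of *SOX10* was 127 and that of *MITF* 8.54 CPM per kb. With the median transcript length the levels per kb were 205 for *AXL*, 287 for *SOX10*, 48.3 for *PPARG* and 33.7 for *MITF*, so that *SOX10* came before *AXL*.

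Lineage factors and *AXL* were thus expressed in the same cultures. *AXL* exceeded *MITF* per kb by 12.1, 9.44 and 14.1-fold in the 3 libraries, by 11.5-fold for the means and by 6.09-fold with the median transcript length. *SOX10* exceeded *MITF* by 10.3, 6.13 and 21.8-fold. The gap was largest in library 3 and smallest in library 2 for both ratios. In bulk RNA, a low level in all cells and a high level in few cells cannot be told apart, so these data do not show whether single cells held *AXL* and *MITF* together.

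Of the transcription factors of the melanocyte lineage, 11 of 13 were expressed. *SOX10* led on both lengths. *TFE3*, a relative of *MITF* that acts on lysosomal genes, followed with 1153, 1262 and 1018 counts and 39.6 ± 4.53 CPM per kb and lay above *MITF* in every library. *PAX3*, which acts upstream of *MITF*, reached 5.42 ± 0.426 CPM per kb, *LEF1*, a partner of β-catenin, 9.21 ± 3.03, and the neural crest factors *TFAP2A* and *FOXD3* 5.21 and 3.34. *SOX9*, which is often high where *SOX10* is low, had 79, 222 and 25 counts. It was thus highest in the library in which *SOX10* was lowest, and lowest in the library in which *SOX10* was highest. The order of *SOX9* was found in 2292 and that of *SOX10* in 2258 of all 12688 expressed genes, so both orders were common. The ratio of *SOX10* to *SOX9* per kb was 45.7, 10.7 and 198 in the libraries, and for the means it was 33.3, or 87.3 with the median length. The mean level of *SOX9* was 3.28 CPM per kb with library 2 and 1.53 without it. *SNAI2*, with 11, 4 and 14 counts, and *TFEC*, with 2, 4 and 1, lay between the limits.

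Pigment genes were mostly near or under the floor. Of 17 genes for pigment enzymes and melanosome proteins, 7 were expressed (41.2%), against 63.04% of protein-coding genes. *TYR*, the rate-limiting enzyme of melanin synthesis, and the channel gene *TRPM1* had no count in any library. *TYRP1*, a later enzyme of the same path, had 2, 6 and 2 counts, and *DCT*, another, had 1, 0 and 0. The melanosome matrix gene *PMEL* had 8, 8 and 13 counts, *MLANA* had 6, 0 and 0 and *OCA2* had 6, 0 and 18. In every library these enzymes and *MLANA* stayed below 1 CPM, and *OCA2* passed 1 CPM only in library 3. The expressed members serve vesicles and organelle transport in many cell types. *GPNMB*, a glycoprotein of lysosomes and melanosomes, led on both lengths with 432, 572 and 467 counts and 20.3 ± 3.41 CPM per kb, followed by *RAB38*, *BLOC1S1*, *MYO5A*, *MLPH*, *HPS4* and *RAB27A* between 11.0 and 2.22 CPM per kb.

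Promoters of pigment genes are shown because the same letters stood beside different levels. The core of the M box, a motif known as a target of *MITF*, was searched as CATGTG on both strands (CACATG on the other). The window of each gene ran from 250 bases before its start to 50 bases after it. The stretches printed below hold only the bases before the start. Reference promoters of RefSeq, build GRCh38.p14, could be matched to 16542 genes of the table and to 14 of the 17 pigment genes. The letters occurred in 7 of these 14, in 6.59% of expressed genes and in 8.71% of all matched genes. A match is a description and not a site, and the motif was chosen with the levels known. The sequences are written 5′ to 3′ on the gene's own strand with each match in capitals: *TYR* with 0 counts at chr11:89177625-89177874 on the plus strand, *TYRP1* with at most 6 counts at chr9:12693135-12693384 on the plus strand, and the expressed *GPNMB* at chr7:23246525-23246774 on the plus strand.
TYR: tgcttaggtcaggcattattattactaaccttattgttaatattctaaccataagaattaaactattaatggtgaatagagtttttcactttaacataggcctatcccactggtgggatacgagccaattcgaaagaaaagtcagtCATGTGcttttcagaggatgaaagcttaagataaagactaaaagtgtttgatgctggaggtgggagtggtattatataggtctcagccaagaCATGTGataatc
TYRP1: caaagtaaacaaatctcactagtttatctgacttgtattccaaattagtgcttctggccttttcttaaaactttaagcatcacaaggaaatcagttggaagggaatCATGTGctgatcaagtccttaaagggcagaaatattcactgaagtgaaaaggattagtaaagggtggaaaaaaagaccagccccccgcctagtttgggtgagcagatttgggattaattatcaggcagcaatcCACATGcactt
GPNMB: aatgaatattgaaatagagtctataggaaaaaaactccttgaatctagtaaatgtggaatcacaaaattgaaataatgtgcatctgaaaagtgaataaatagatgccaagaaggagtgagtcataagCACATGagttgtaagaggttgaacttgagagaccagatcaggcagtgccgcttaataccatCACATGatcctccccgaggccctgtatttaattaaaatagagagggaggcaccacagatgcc
Each of these 3 windows held the letters at 2 places. Over the 14 genes, the letters occurred in 1 of 6 expressed members, namely *GPNMB*, and in 6 of the 8 that were not expressed.

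Receptors and adhesion genes of melanocytes gave a mixed picture, with 8 of 14 expressed. *MCAM*, a cell adhesion molecule of melanoma, led on both lengths with 2731, 2648 and 2634 counts and 64.8 ± 0.551 CPM per kb and was even across libraries. *ERBB3*, the neuregulin receptor of neural crest cells, had 1948, 1103 and 2801 counts and *S100B* 206, 127 and 327. In both, as in *S100A1* and *EDNRB*, library 2 was the lowest and library 3 the highest, by at least 2-fold, and none of the 4 differed by 2-fold between libraries 1 and 3. The stem cell factor receptor *KIT* had 1, 0 and 0 counts and E-cadherin, encoded by *CDH1*, had 0, 0 and 1. Both were under the floor, while N-cadherin, encoded by *CDH2*, had 1138, 868 and 1067 counts and 27.9 ± 3.31 CPM per kb.

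**Figure D2:**
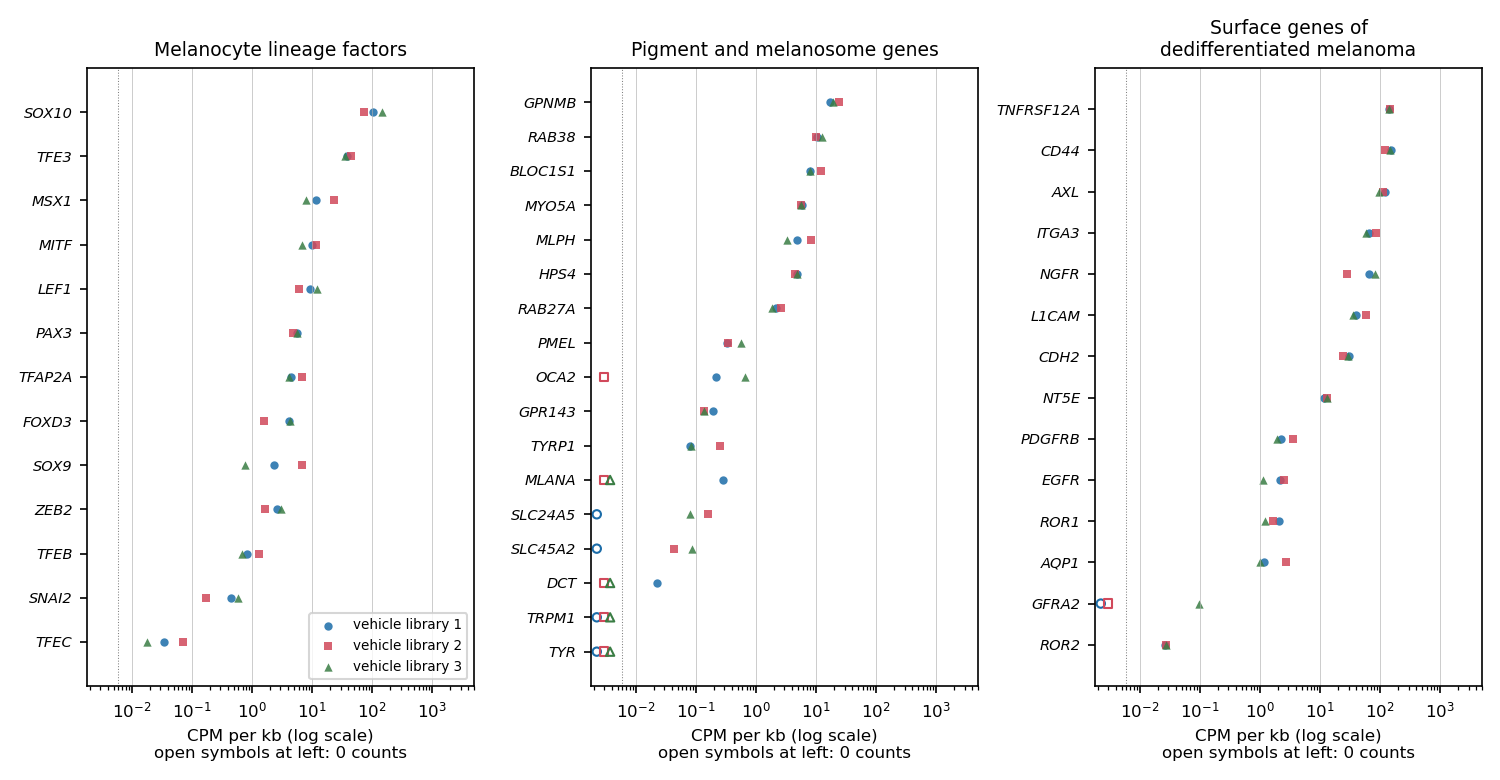
CPM per kb on a log axis (horizontal) of the melanocyte lineage factors, the pigment and melanosome genes and the surface genes of dedifferentiated melanoma (vertical), 1 symbol per vehicle library, with open symbols left of the dotted line for a count of 0. SOX10 stands near 109 CPM per kb, TYR and TRPM1 have only open symbols, and 12 of the 14 surface genes are expressed.

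Genes known from dedifferentiated melanoma cells were broadly expressed. Of their surface proteins 12 of 14 were expressed, of their transcription factors 18 of 18, and of a group of mostly secreted and matrix proteins 22 of 24, against 63.04% of protein-coding genes. *TNFRSF12A*, the receptor of the cytokine TWEAK, led the surface proteins at 144 ± 3.05 CPM per kb ahead of the hyaluronan receptor *CD44* at 139 ± 14.7, an order that was reversed with the median length (274 and 1130.3). *NGFR*, the nerve growth factor receptor that marks neural crest cells, had 1969, 794 and 2350 counts and 58.7 ± 27.7 CPM per kb, or 74.0 without library 2. Its lowest library was far below the other 2, which lay close together. The water channel *AQP1*, which marks neural crest-like cells, was at 1.64 ± 0.939 CPM per kb. *EGFR* was expressed at a low level, with 185, 203 and 95 counts and 1.93 ± 0.697 CPM per kb, and *GFRA2*, with 0, 0 and 4 counts, and *ROR2*, with 1, 1 and 1, were near or under the floor.

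Among the transcription factors of that state, *FOSL1*, a subunit of the AP-1 factor and a late target of ERK, and *WWTR1*, the coactivator TAZ, stood out at 225 ± 13.2 and 100 ± 15.5 CPM per kb, with *WWTR1* first by median length (773 against 313). The TEAD factors, through which *WWTR1* binds DNA, were all expressed, led by *TEAD4* at 41.1 ± 2.87 CPM per kb, and the related coactivator *YAP1* reached 32.6 ± 2.76. *JUN* was at 13.7 ± 3.59, while *FOS* and *FOSB* were low at 1.64 ± 0.306 and 1.89 ± 0.832 CPM per kb. The group of secreted and matrix proteins also holds the filaments *VIM* and *NES* and the nuclear *ANKRD1*, and summed to 11215, 10301 and 12952 CPM. *VIM*, the filament of mesenchymal cells, led on both lengths with 30610, 27349 and 33189 counts and 1345 ± 125 CPM per kb, followed by *SERPINE2* at 472 ± 90.3, the matrix proteins *SPARC* at 342 ± 40.7 and *THBS1* at 211 ± 47.1, and the WNT inhibitor *DKK1* at 154 ± 26.5. *CCN2*, a target of *YAP1*, reached 42.8 ± 6.37 CPM per kb. Fibronectin, encoded by *FN1*, had 1965, 550 and 2995 counts and the neural filament *NES* had 2906, 1172 and 3661. For both, library 2 was less than 50% of either other library, and without it their means rose from 23.6 to 31.7 and from 54.6 to 69.2 CPM per kb. *LOX*, which marks the same state elsewhere, was at only 0.495 ± 0.0793 CPM per kb.

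Families of developmental transcription factors were expressed in part. Of 20 SOX genes 11 were expressed, against 63.04% of protein-coding genes, and *SOX10* led on both lengths. After it came *SOX12*, *SOX13*, *SOX11*, *SOX5* and *SOX2*, between 9.66 and 5.38 CPM per kb. *SOX5* had 459, 215 and 582 counts and *SOX11* had 520, 326 and 730. Both followed the order of *SOX10* between libraries, which was found in 2258 of all 12688 expressed genes. Of 9 PAX genes, *PAX3*, *PAX9* and *PAX8* were expressed, and *PAX1*, *PAX4* and *PAX5* had no count in any library.

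HOX genes, which record the position of a cell along the body axis, were expressed in all 4 clusters. The number expressed was 7 of 11 in cluster A, 9 of 10 in B, 8 of 9 in C and 5 of 9 in D. Summed levels were 64.6, 71.5 and 66.5 CPM for cluster A, 209, 233 and 223 for B, 193, 193 and 191 for C and 26.2, 30.8 and 25.6 for D. Clusters B and C thus lay above A, and A above D, in every library. *HOXB2* (32.4, 36.3 and 35.3 CPM per kb), *HOXC10* (29.8, 30.2 and 27.3) and *HOXB7* (20.7, 25.3 and 21.4) were the 3 highest and did not overlap, but with the median length *HOXC10* came first at 70.5, then *HOXB7* at 58.3 and *HOXB2* at 58.2. Within cluster B every member from *HOXB2* to *HOXB9* was expressed, *HOXB1* was at 0, and *HOXB13* reached 3.27 ± 0.348 CPM per kb. *HOXA9* and *HOXA7* were under the floor, although *HOXA10* was expressed with 113, 112 and 106 counts, and *HOXA7* shares 74.5% of its stretches with other genes. None of the 29 expressed HOX genes differed by 2-fold between libraries, against 5.998% of all expressed genes.

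**Figure D3:**
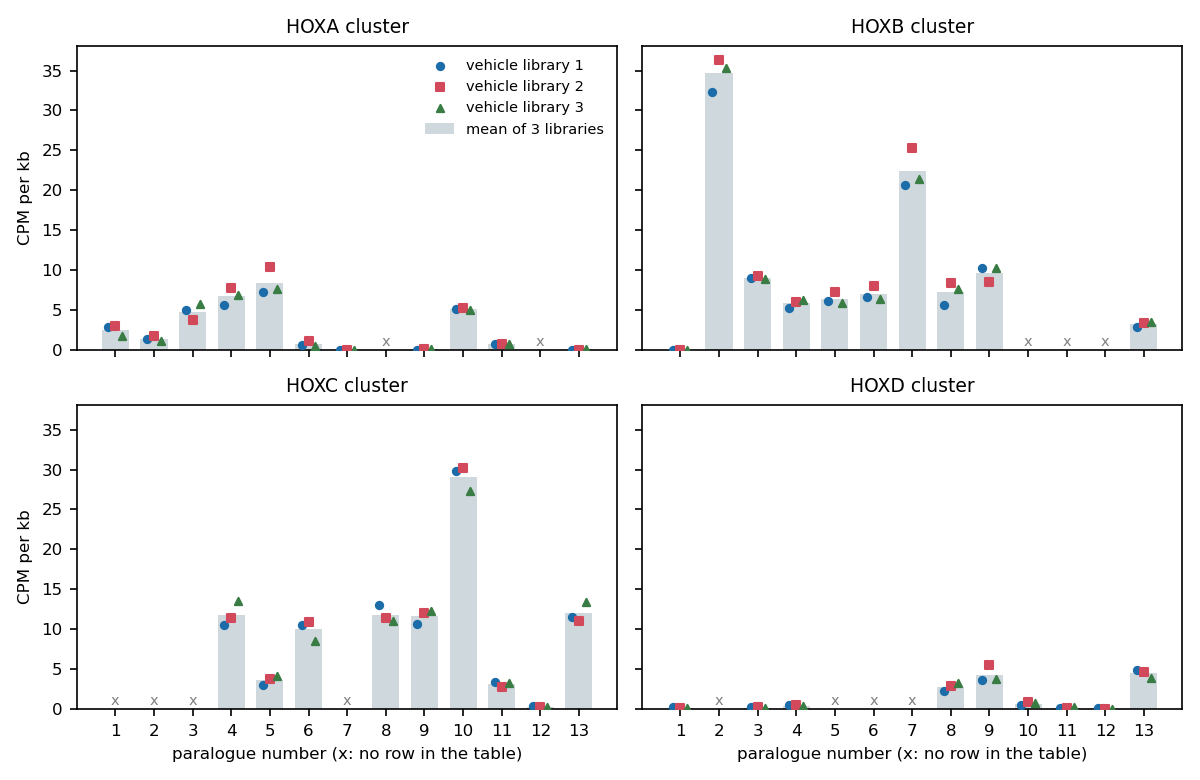
CPM per kb (vertical axis) of the HOX genes by paralogue number (horizontal axis) in clusters A to D, with bars for the mean and 1 symbol for each of the 3 vehicle libraries. An x marks a number without an entry in the table, and the tallest bars are HOXB2 at 34.7, HOXC10 at 29.1 and HOXB7 at 22.5 CPM per kb.

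Receptor tyrosine kinases pass growth factor signals into the cell, and 32 of 58 of them were expressed (55.2%), against 63.04% of protein-coding genes. *EPHA2*, an ephrin receptor, had 4220, 4483 and 3356 counts and 123, 136 and 101 CPM per kb, a range that overlapped with that of *AXL* (124, 112 and 96.6). *ERBB3* and the hepatocyte growth factor receptor *MET* followed at 38.8 ± 17.0 and 30.0 ± 9.11 CPM per kb and were opposite in their order, with *ERBB3* highest in library 3 and *MET*, at 1868, 2080 and 1113 counts, highest in library 2. With the median length, *EPHA2* remained the highest at 568, but *AXL*, at 205, moved from rank 2 to rank 4, after *ERBB3* and *MET*. The other members of the *AXL* family differed from it: *TYRO3* had 455, 342 and 429 counts and *MERTK* had 1, 4 and 4. *ERBB2*, *DDR1*, *RYK*, *EPHB4* and *IGF1R* lay between 20.8 and 9.56 CPM per kb. *RET*, *FLT3*, *NTRK3* and *EPHA10* had no count in any library, and *KIT*, *ERBB4*, *EPHA5*, *EPHA8*, *INSRR* and *ROR2* were also at or under the floor.

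Families of secreted ligands differed in how many members were expressed, against 63.04% of protein-coding genes. *TGFA*, a ligand of *EGFR*, led the ligands of the epidermal growth factor family on both lengths with 1267, 1006 and 1801 counts and 37.2 ± 11.2 CPM per kb, and 6 of 11 of its genes were expressed. Few FGF ligands were expressed, with 5 of 22 above the limit and 10 at 0. *FGF2* had 257, 241 and 188 counts, the highest per kb by the longest transcript at 3.98 ± 0.592, but *FGF13* came first by median length. Of WNT ligands 3 of 19 were expressed, and *WNT5A*, a ligand that acts mainly without β-catenin, led on both lengths with 425, 487 and 427 counts. Of ligands for vessel growth and of the PDGF family 9 of 11 were expressed, with *VEGFB* and *VEGFC* at 41.6 ± 4.52 and 18.9 ± 7.93 CPM per kb.

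*PPARG* ranked 3 of 48 nuclear receptors per kb. *NR2F6*, an orphan receptor, had 48.7, 56.1 and 44.8 CPM per kb, *NR1H2*, a receptor of oxysterols, 40.9, 44.8 and 41.5, and *PPARG* 39.5, 44.8 and 38.6. The ranges of all 3 overlapped, although within each library *NR2F6* was the highest. With the median transcript length *PPARG* stood at 48.3 CPM per kb and rank 9, while *NR1H2* was first at 113. *PPARG* exceeded *PPARD*, the widely expressed member of its group, 6.29-fold by the longest and 6.90-fold by the median transcript. It exceeded *PPARA*, which drives fat oxidation in liver, 47.0-fold by the longest but 3.16-fold by the median transcript, so the size of this gap depended on the length while its direction did not. Among the RXR genes, the partners of PPARγ on DNA, *RXRB* had 450, 448 and 443 counts, *RXRA* 335, 292 and 323 and *RXRG* 54, 32 and 124. *RXRB* was even between libraries, whereas *RXRG* differed by more than 3-fold, with library 3 the highest.

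Of the whole nuclear receptor family 28 of 48 were expressed (58.3%), against 63.04% of protein-coding genes. The retinoic acid receptors *RARG* and *RARA*, the vitamin D receptor *VDR* and the glucocorticoid receptor *NR3C1* were expressed between 21.3 and 8.89 CPM per kb, and *RARB* was near the floor with 9, 11 and 5 counts. *NR2F1*, a neural crest factor, had 242, 513 and 117 counts and was highest in library 2, while the early response gene *NR4A1* had 488, 263 and 769 counts and was highest in library 3. The oestrogen receptor *ESR1*, the progesterone receptor *PGR* and the liver factor *HNF4A* were under the floor. *ESR1* had 2, 1 and 0 counts, *PGR* 0, 1 and 0 and *HNF4A* 3, 0 and 3. Among cofactors 18 of 19 were expressed. *PPARGC1A*, the coactivator of PPARγ that drives mitochondrial genes, was the exception, with 7, 14 and 6 counts, and its relatives *PPRC1* and *PPARGC1B* were at 27.7 ± 3.35 and 1.09 ± 0.0905 CPM per kb.

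Of genes for lipid uptake, binding and storage, several of which are known as targets of PPARγ in fat cells, 17 of 28 were expressed, against 63.04% of protein-coding genes. *PLIN2*, which coats lipid droplets, was the highest of them on both lengths, with 3218, 3265 and 3442 counts and 198 ± 9.87 CPM per kb. *ANGPTL4*, an inhibitor of lipoprotein lipase, had 30, 44 and 71 counts. *CPT1A*, from the oxidation genes, admits fatty acids to mitochondria and had 533, 479 and 591 counts. *FABP4*, the fatty acid carrier of fat cells, had 1, 1 and 1 counts and was under the floor, as were the droplet gene *PLIN1* with 1, 2 and 1 and the fatty acid receptor *CD36* with 2, 0 and 1. Lipoprotein lipase, encoded by *LPL*, had 107, 28 and 149 counts and was lowest in library 2.

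**Figure D4:**
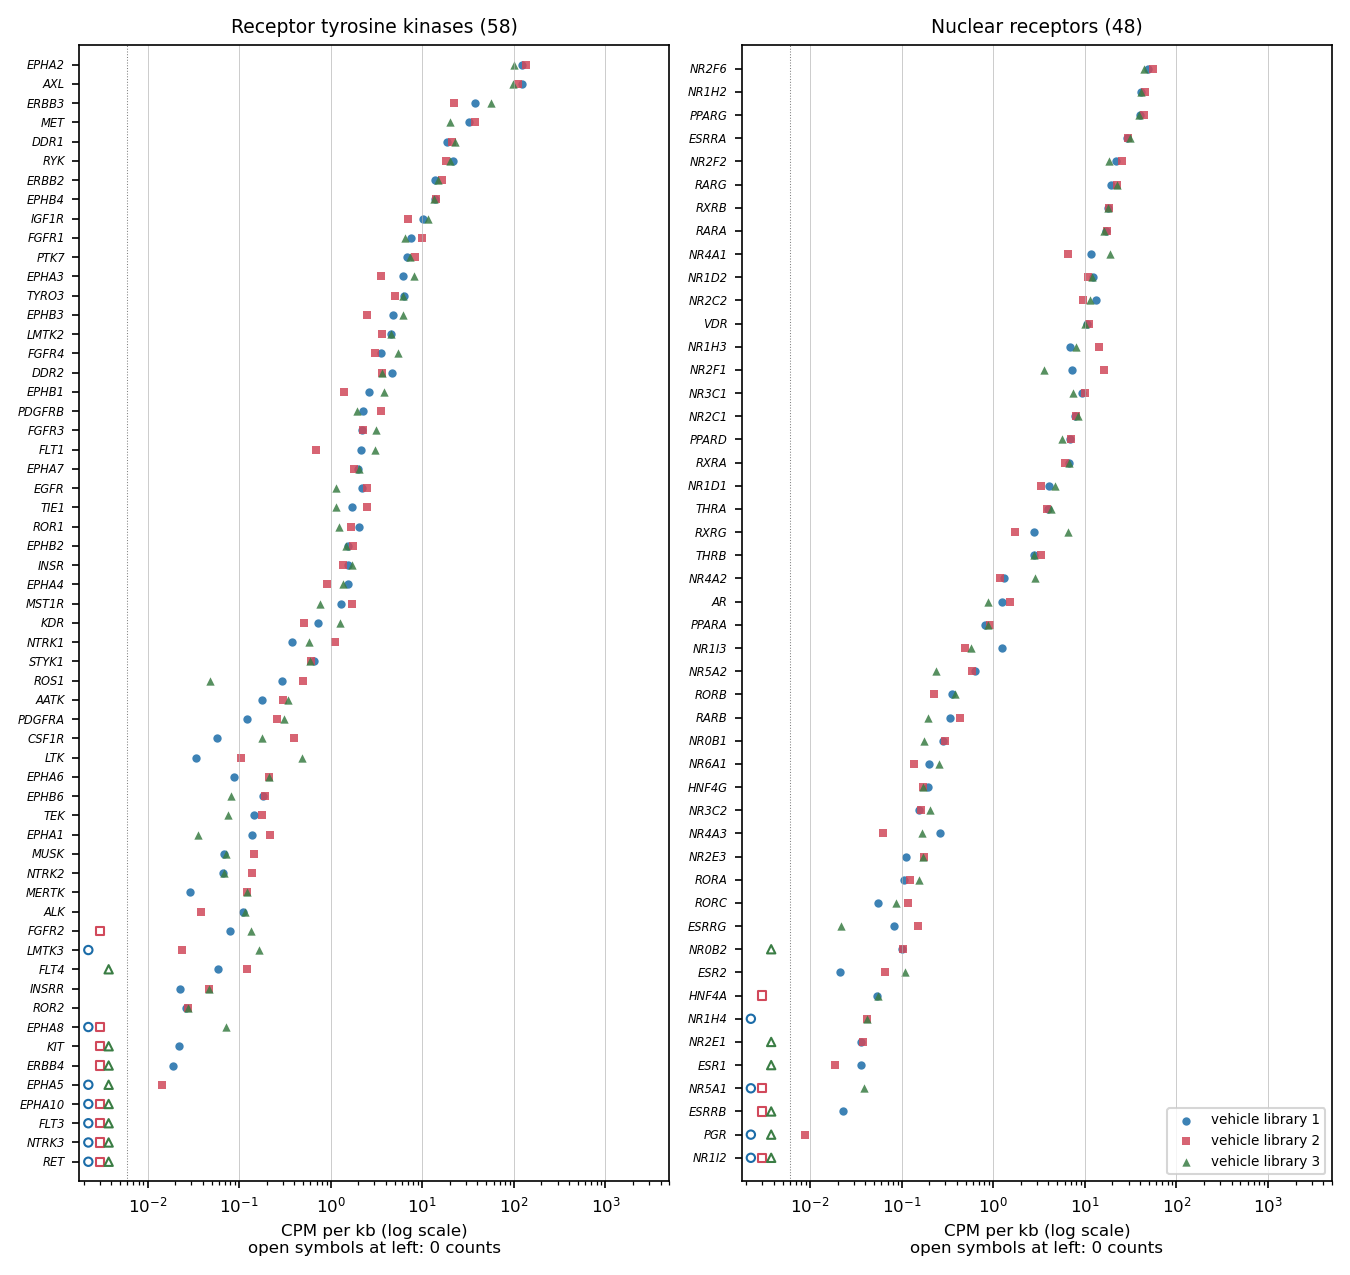
CPM per kb on a log axis (horizontal) of all 58 receptor tyrosine kinases and all 48 nuclear receptors (vertical, ordered by mean), 1 symbol per vehicle library, with open symbols left of the dotted line for a count of 0. EPHA2 and AXL lead the kinases at means of 119.7 and 111 CPM per kb, and PPARG ranks 3 among the nuclear receptors at 41.0.

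All genes listed for RAS and RAF (10 of 10), for MEK and ERK (4 of 4) and for the outputs and brakes of ERK (25 of 25) were expressed, against 63.04% of protein-coding genes. *ARAF* had 824, 804 and 818 counts and 38.4 ± 0.498 CPM per kb, and *BRAF* 96, 87 and 80 counts and 1.08 ± 0.0811 CPM per kb. *BRAF* lay below *ARAF* in every library. *HRAS* led its group at 51.8 ± 4.08 CPM per kb by the longest transcript but not by the median, and *NRAS* was at 24.9 ± 3.41. The kinase genes *MAP2K1*, *MAP2K2* and *MAPK3* lay between 21.5 and 32.2 CPM per kb.

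Outputs and brakes of ERK signalling were at unequal levels. *CCND1*, the cyclin that ERK induces, had 4530, 3612 and 4463 counts and 115 ± 12.4 CPM per kb. The phosphatases *DUSP4* and *DUSP6*, which remove phosphate from ERK, were both expressed, *DUSP4* with 2379, 2768 and 2227 counts and *DUSP6* with 1297, 1238 and 1565. Of the inhibitors upstream of RAF, *SPRY2* had 1259, 901 and 1707 counts and *SPRY4* 948, 657 and 1421. The SPRY genes were lowest in library 2 and highest in library 3, whereas *DUSP4* was highest in library 2. The ETS factors *ETV4*, *ETV5* and *ETV1* were at 99.9 ± 8.10, 20.9 ± 2.32 and 7.14 ± 0.579 CPM per kb, with *ETV5* before *ETV4* by median length. *MYC* was at 8.27 ± 0.689 and the immediate early gene *EGR1* at 3.02 ± 1.13.

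In the PI3K pathway 22 of 23 genes were expressed. *PIK3CG*, a catalytic subunit typical of blood cells, had no count. *AKT2* led on both lengths at 34.2 ± 1.20 CPM per kb, with *AKT1* at 17.9 ± 0.660. *FOXO1* was low at 0.739 ± 0.151 CPM per kb.

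Cell cycle genes were almost all expressed. Of cyclins, kinases and replication genes 23 of 24 were expressed, with *CDK4* at 227 ± 3.34, *PCNA* at 221 and *CCNB1* at 211 ± 8.01 CPM per kb, and *TOP2A* first by median length. *CCND2* had no count in any library, against 33.1 ± 3.12 CPM per kb for *CCND3*. Of tumour suppressors and related genes 18 of 20 were expressed. *CDKN2A*, which encodes inhibitors of *CDK4* and of *MDM2*, had 19, 28 and 22 counts, and its neighbour *CDKN2B* had none. *MTAP*, which lies beside them on the chromosome, had 2702, 2507 and 2452 counts. *MTAP* exceeded *CDKN2A* 24.1, 15.2 and 18.9-fold per kb in the 3 libraries and 82.8-fold by the median transcripts. The cell cycle inhibitor *CDKN1A* had 763, 1014 and 893 counts and the suppressor *RB1* 817, 630 and 774, and the telomerase gene *TERT* had 101, 77 and 73.

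Among the genes that control cell death, *MCL1* was the highest of the protective members on both lengths with 4545, 4235 and 4267 counts and 131 ± 2.21 CPM per kb. *BCL2L1* followed at 52.2 ± 2.54, and *BCL2* was low at 1.05 ± 0.193. *MCL1* exceeded *BCL2* 125-fold, or 114-fold by median length. *BCL2A1*, a target of *MITF* in melanoma, had 4, 1 and 6 counts and lay between the limits. *BAX* was the highest of the effectors at 104 ± 8.53 CPM per kb, and 10 of 11 effectors and BH3-only genes were expressed.

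Of keratins, the filaments of epithelial cells, 11 of 55 were expressed, and of other intermediate filaments 7 of 13, against 63.04% of protein-coding genes. *KRT18* led on both lengths with 3642, 5284 and 2605 counts and 218 ± 79.3 CPM per kb, *VIM* exceeding it 6.18-fold by the longest and 10.7-fold by the median transcript. *KRT8*, its pairing partner, had 310, 978 and 247 counts and *KRT81* had 1042, 3419 and 798. All 3 were highest in library 2 and lowest in library 3, and without library 2 the mean of *KRT81* fell to 55.7 from 108 CPM per kb. *KRT81* shares 52.8% and *KRT18* 47.9% of its stretches with other genes. Of 39 keratins at or under the floor, 27 had no count.

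Integrins bind cells to matrix, and 11 of 18 α and 6 of 8 β subunit genes were expressed, against 63.04% of protein-coding genes. *ITGA3* and *ITGB1* led their groups on both lengths, at 69.4 ± 13.8 and 63.6 ± 4.22 CPM per kb. *ITGB3*, part of the vitronectin receptor with *ITGAV*, had 830, 422 and 1223 counts, while *ITGB4*, a laminin receptor subunit, had 406, 1319 and 301. The former was lowest and the latter highest in library 2, and without this library their means were 30.2 and 6.97 CPM per kb against 24.3 and 13.6 with it. The leukocyte subunits *ITGAM* and *ITGAL* were under the floor.

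Of collagens 23 of 44, of laminins 9 of 12 and of matrix metalloproteinases 12 of 22 were expressed, against 63.04% of protein-coding genes. *COL9A3*, a collagen of cartilage, and *COL4A2*, of basement membrane, were the highest at 119 ± 30.1 and 68.6 ± 10.5 CPM per kb, in the opposite order by median length. The fibrillar *COL1A1* had 87, 230 and 47 counts, *COL1A2* 1, 1 and 1 and *COL3A1* 2, 5 and 1, so the pair that forms type I collagen was unequal, with *COL1A2* under the floor. Among laminins, *LAMB1* and *LAMC1* led on both lengths at 119 ± 11.1 and 62.3 ± 1.93 CPM per kb. Of the α chains *LAMA5* had 1029, 2357 and 547 counts, more than 2-fold higher in library 2 than in the others, and *LAMA4* had 542, 528 and 769. Among the metalloproteinases, *MMP2*, which cleaves basement membrane collagen, and its activator *MMP14* led at 59.2 ± 10.7 and 27.9 ± 2.98 CPM per kb, with *MMP14* first by median length. *MMP1* had 37, 113 and 30 counts, *MMP9* 5, 5 and 4, and *MMP7* none. The inhibitors *TIMP1*, *TIMP2* and *TIMP3* were expressed at 199 ± 32.5, 49.0 ± 7.46 and 199.7 ± 60.5 CPM per kb, with *TIMP1* before *TIMP3* by median length, and *TIMP4* had no count.

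Glycolysis supplied the most abundant transcripts of metabolism. The lower glycolysis group summed to 18644, 20802 and 19275 CPM, with 13 of 16 genes expressed, and *GAPDH*, *ENO1* and *PKM* were the 3 highest on either length, with *ENO1* before *GAPDH* by median length. The liver and red cell kinase *PKLR* had no count. *SLC2A1*, the widespread glucose transporter, had 2834, 2508 and 2707 counts and 86.2 ± 3.60 CPM per kb, 10.1-fold above *SLC2A3*, or 12.4-fold by median length. The insulin-responsive *SLC2A4* had 3, 2 and 1 counts. *PFKP* was the leading phosphofructokinase at 84.4 ± 9.28 CPM per kb. *HK1* exceeded *HK2*, the hexokinase of many tumours, 2.41-fold by the longest and 12.1-fold by the median transcript, so the direction held and the size did not. The gluconeogenic *PCK1* and *G6PC1* had no count.

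The lactate dehydrogenase *LDHB* exceeded *LDHA* 1.77, 1.90 and 1.84-fold per kb in the 3 libraries and 1.23-fold by median length. *LDHB* had 11159, 11937 and 10917 counts and *LDHA* 9890, 9883 and 9300, and *LDHB* shares 61.4% of its stretches with other genes. The lactate transporter *SLC16A1* had 2089, 1710 and 1919 counts and *SLC16A3* 251, 391 and 229. Of nuclear genes for the respiratory chain 76 of 82 were expressed, led by the ATP synthase subunit *ATP5F1B* at 831 ± 32.7 CPM per kb on both lengths. Of the pyruvate dehydrogenase kinases, which limit the entry of pyruvate into mitochondria, *PDK2*, *PDK3*, *PDK4* and *PDK1* were all expressed at low levels, from 6.84 to 1.24 CPM per kb.

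Among amino acid genes, transporters and the synthesis of serine and of polyamines had the highest levels by the longest transcript. *SLC3A2* and *SLC7A5*, which together form the exchanger of large neutral amino acids, were at 300.3 ± 7.71 and 289 ± 26.2 CPM per kb. The glutamine transporter *SLC1A5* was at 182 ± 7.22. The serine pathway genes *PHGDH*, *PSAT1* and *PSPH* were at 132 ± 3.80, 216 ± 21.6 and 26.3 ± 1.57 CPM per kb, with *SHMT2* first by median length, and all 13 genes of serine, glycine and one-carbon metabolism were expressed. The polyamine synthases *SRM* and *SMS* were at 197 ± 8.20 and 117 ± 9.15 CPM per kb. Argininosuccinate synthase, encoded by *ASS1*, was low with 18, 42 and 16 counts, whereas *ASL*, the enzyme after it in arginine synthesis, had 308, 448 and 322.

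Of the genes for fatty acid and sterol synthesis 20 of 21 were expressed. *ACLY*, which makes acetyl-CoA from citrate, led at 90.8 CPM per kb, and the fatty acid synthase *FASN*, at 62.7 ± 2.63, was first by median length. The desaturase *SCD* had 3335, 4082 and 2927 counts, and *SCD5* had 51, 68 and 46. *FADS1* exceeded *FADS2* in every library. Of the genes for fatty acid oxidation 13 of 16 were expressed, led on both lengths by *ACADVL* at 221 ± 20.3 CPM per kb.

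Redox genes included the thioredoxin system. *TXN*, encoding thioredoxin, had 3997, 4489 and 3555 counts and 546 ± 68.7 CPM per kb, and its reductase *TXNRD1* 4695, 4614 and 4040 counts. *TXNIP*, the α-arrestin that binds thioredoxin and limits glucose uptake, had 204, 184 and 134 counts and 7.01 ± 1.38 CPM per kb. *TXN* exceeded *TXNIP* 66.0, 82.1 and 89.3-fold in the 3 libraries and 49.8-fold by median length. *MLX*, the partner of the glucose-sensing factors that act on *TXNIP*, was at 40.4 ± 2.19 CPM per kb and *MLXIP* at 4.22 ± 0.659, while *MLXIPL*, prominent in liver and fat, had 2, 4 and 4 counts. Of antioxidant enzymes 24 of 25 were expressed, with *PRDX1* first on both lengths at 853 ± 45.2 CPM per kb and *GPX2* under the floor. Metallothioneins, which bind zinc and copper, came almost wholly from *MT2A*. It had 3057, 3768 and 2981 counts and 428 ± 63.8 CPM per kb, *MT1X* 8.85 ± 1.31, and the other 10 were at or under the floor.

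Genes of antigen presentation by HLA class II were expressed in these cells, and they differed between libraries in the same order. HLA class II molecules are typical of professional antigen-presenting cells and also occur in melanoma cells. Of 12 genes 11 were expressed. *CD74*, the invariant chain, had 8828, 4284 and 14171 counts and 621 ± 339.9 CPM per kb. *HLA-DRA* had 2293, 977 and 3535 counts and 209 ± 118 CPM per kb, *HLA-DRB1* 761, 329 and 1319 counts, and *HLA-DPA1* 1359, 662 and 2016. *CIITA*, the factor that switches on this group, had 280, 116 and 341 counts. In all 11 expressed genes library 3 was the highest and library 2 the lowest, an order found in 2258 of all 12688 expressed genes. Of the 11 class II genes, 10 differed by at least 2-fold between those 2 libraries, against 4.71% of expressed genes between the same 2. Between the highest and lowest of all 3 libraries, the share of expressed genes was 5.998%. The number of class II genes was 1 without library 2, 5 without library 3 and 10 without library 1. The list summed to 1684, 849 and 2741 CPM, with a mean of 1758 CPM with library 2 and 2212 without it. The mean of *CD74* was 782 and that of *HLA-DRA* 267 CPM per kb without library 2.

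Class I genes, which most cells express, differed less than class II genes. Of 15 genes 14 were expressed, and 2 differed by 2-fold (14.3%), against 5.998% of expressed genes. Both were highest in library 3 and lowest in library 2. Over all 14, library 2 was the highest in 8 and library 3 in 5. *B2M*, the shared light chain, led on both lengths with 5084, 5609 and 5165 counts and 259.9 ± 18.9 CPM per kb. *HLA-B* had 826, 539 and 1297 counts and followed the order of the class II genes. Among markers of leukocytes, *PTPRC* had 1, 1 and 1 counts, *CD14* 11, 8 and 5 and *CD3E* none. Of a list of checkpoint ligands and related genes 10 of 16 were expressed. *LGALS1* led on both lengths at 1124 ± 164 CPM per kb, *CD276* was at 39.9 ± 4.62 and *CD274*, which encodes PD-L1, at 2.42 ± 0.739, while *IDO1* and *VTCN1* had no count.

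Promoters of class II genes are shown because the group moved together between libraries. The inverted CCAAT motif of the Y box was searched as CTGATTGG on both strands (CCAATCAG on the other) in the same windows of RefSeq, build GRCh38.p14. The letters occurred in 3 of the 10 class II genes with a promoter, *HLA-DRB1*, *HLA-DQB1* and *HLA-DMA*, in 4 of the 12 class I genes and in 5.17% of all matched genes. A match is a description, and its absence in the other windows says only that these letters were not there. The match is in capitals in *HLA-DRB1*, which lies on the minus strand at chr6:32589849-32590098, and in *HLA-DMA*, on the minus strand at chr6:32953098-32953347.
HLA-DRB1: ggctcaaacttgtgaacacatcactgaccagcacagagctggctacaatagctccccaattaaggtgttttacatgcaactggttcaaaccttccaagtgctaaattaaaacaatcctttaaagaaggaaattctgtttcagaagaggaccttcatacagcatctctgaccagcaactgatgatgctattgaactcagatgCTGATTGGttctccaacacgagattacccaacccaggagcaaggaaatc
HLA-DMA: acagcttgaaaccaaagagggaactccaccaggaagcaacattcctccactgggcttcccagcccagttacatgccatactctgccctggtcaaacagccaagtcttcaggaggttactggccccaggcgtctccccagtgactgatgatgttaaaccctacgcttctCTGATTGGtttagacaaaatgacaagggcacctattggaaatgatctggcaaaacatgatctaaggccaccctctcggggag
The match began 49 bases before the start of *HLA-DRB1* and 82 bases before that of *HLA-DMA*.

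Cancer-testis antigens, which are genes of germ cells that tumours can express, differed between families in how many members were expressed. Of 12 MAGE-A genes 8 were expressed (66.7%), against 63.04% of protein-coding genes. *MAGEA4* had 10545, 10327 and 10527 counts and 697 ± 11.0 CPM per kb and was even across libraries. It held 70.7% of the family's summed CPM per kb, or 76.5% by median length. *MAGEA3*, *MAGEA12* and *MAGEA6* followed at 88.4 ± 4.06, 82.7 ± 1.90 and 76.6 ± 1.15 CPM per kb, and *MAGEA3* and *MAGEA6* share 70.3% and 72.2% of their stretches with other genes. *MAGEC2* had 1501, 1514 and 1436 counts, and 2 of 12 MAGE-B and MAGE-C genes were expressed. Of the other families 18 of 62 genes were expressed. *PAGE5* led on both lengths at 279 ± 21.7 CPM per kb, and *PRAME*, which binds retinoic acid receptors, had 1801, 1776 and 1969 counts. The 2 copies of NY-ESO-1, *CTAG1A* and *CTAG1B*, were listed at 0, but share 92.1% and 91.6% of their stretches with other genes. Whether their reads went uncounted was not tested.

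The label of a melanoma line was checked against markers of other cell types. Of 49 such markers 12 were expressed (24.5%), 15 lay between the limits, 22 were at or under the floor and 10 of the latter had no count. Their summed level was 197, 262 and 224 CPM, and the most abundant was the keratin *KRT10* at 36.4 ± 2.96 CPM per kb. The markers did not include the more abundant keratins *KRT18* and *KRT81*. The whole keratin list summed to 1066, 1715 and 862 CPM and was highest in library 2. Keratinocyte markers had 3 of 7 expressed and summed to 93.5, 98.1 and 121 CPM, with *KRT1* and *DSG3* at 0. Fibroblast markers had 3 of 9 expressed, led by *PDGFRB* at 2.57 ± 0.830 CPM per kb, or by *COL1A1* with the median length, and summed to 29.6, 57.7 and 26.8 CPM, with *COL1A2* under the floor. Leukocyte markers had 1 of 9 expressed, namely *CD68*, whose stretches are shared to 98.4%, and *CD3E* and *MS4A1* were at 0. Endothelial markers had 1 of 6 expressed, *KDR* with 38, 26 and 65 counts, and *PECAM1* was under the floor. Adipocyte markers had 1 of 6 expressed, *LPL*, with *ADIPOQ* and *LEP* at 0. Erythroid and hepatocyte markers had 1 of 6, *SERPINA1*, with *HBB* and *ALB* at 0, and neuronal markers had 2 of 6, *SYP* and *GAD1*. Fibroblast, leukocyte, neuronal and erythroid and hepatocyte sums were highest in library 2, keratinocyte, endothelial and adipocyte sums in library 3, and their part in the differences between libraries was not tested. Of the melanocyte lists, 11 of 13 transcription factors, including *SOX10* and *PAX3*, were expressed, against 63.04% of protein-coding genes. Of the receptors and adhesion genes 8 of 14 were expressed, including *MCAM*, and of the pigment genes 7 of 17. The pigment enzymes *TYR*, *TYRP1* and *DCT* were not expressed. Most of the listed lineage factors were thus expressed (84.6%), and the pigment enzymes were not. The shares of the receptor list (57.1%) and of the pigment list (41.2%) lay below that of protein-coding genes. These counts alone do not settle the label.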

How the data were processed

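The authors deposited a table of raw counts per gene, with no decimals, and their processing notes give hg19 as the genome build. The aligner, the annotation and the strand used in counting are not given in the sources used here. Columns of other groups were not used, and the table held no columns of other samples. CPM used each library's total. Lengths came from GENCODE release 29 on GRCh38. Genes named were the markers, the 20 highest on each scale, up to 6 of the highest and 6 at or under the floor in each list, genes the paper names and the 10 most uneven genes. Members and lists were chosen with earlier results of these data known. Alternatives were TMM (edgeR 4.0.16) and DESeq2 1.42.0 library sizes in R 4.3.3, other limits, median transcript lengths and leaving out each library. Scripts ran in Python 3.11.15 with numpy 2.4.6 and pandas 2.3.3 and were first tested on simulated data.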

Additional observations from a re-analysis of the deposited data

How the results depend on the processing

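With the median instead of the longest transcript, *AXL* changed from 111 to 205, *MITF* from 9.65 to 33.7, *PPARG* from 41.0 to 48.3 and *SOX10* from 109 to 287 CPM per kb, the rank of *PPARG* among nuclear receptors from 3 to 9 and that of *AXL* among receptor tyrosine kinases from 2 to 4. Of 1441 list genes, 969 moved by more than 1 SD on this scale. TMM and DESeq2 scaling changed no level in CPM by more than 1 SD, nor did leaving out any library, which with 3 values is built in. The number of expressed genes was 13399 at a limit of 0.5 CPM, 10560 at 5 CPM, 12550 with 10 counts in each library, 17898 with 1 count in any library and 12817 to 12868 with a library left out, against 12688. The number expressed moved by more than 1.5-fold in 3 of 81 lists at 0.5 CPM, in 12 of 81 at 5 CPM and in 1 of 81 without library 1. Expressed genes differing by 2-fold numbered 761, and 159 to 598 with a library left out, being 159 without library 2, 344 without library 3 and 598 without library 1. The median spread was 8.304%, and 5.71% to 8.32% with a library left out. All 11 expressed class II genes kept their order under both scalings. The leave-out runs of the spread and of the 2-fold number, both scalings of the number of expressed genes, of the 2-fold number and of the class II order, and the DESeq2 scaling of the spread were chosen after seeing the data. No paired analysis was possible because only 1 group was used.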

Other observations

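Further groups of genes were described in the same way. Of cytosolic ribosomal protein genes 81 of 87 were expressed, with sums of 44898, 52904 and 49583 CPM, and 69 of the 81 expressed were highest in library 2. The nuclear genes of the respiratory chain were alike in this, with 69 of 76 highest in library 2, against 4773 of all 12688 expressed genes. None of the ribosomal genes and 1 of the respiratory chain genes reached a 2-fold difference, and the cause was not tested. Of heat shock genes 14 of 20 were expressed. *HSPA8*, the constitutive chaperone, had 43924, 36108 and 32536 counts, the stress-induced *HSPA1A* 714, 647 and 430 and the small heat shock gene *HSPB1* 1465, 1858 and 1412. *HSPA8* and *HSPA1A* were highest in library 1 and lowest in library 3. *HSPA1A* shares 74.1% of its stretches with other genes.

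Among the S100 genes 12 of 20 were expressed, led by *S100A6*, *S100A11* and *S100A10*, while *S100A7*, *S100A8* and *S100A12*, known from skin and myeloid cells, had no count. The annexin *ANXA1*, an inhibitor of inflammatory signals, had 13550, 10805 and 14981 counts and 700.1 ± 109 CPM per kb. Of cytokines and chemokines 13 of 29 were expressed, and 12 of the 13 were highest in library 2, against 4773 of 12688 over all expressed genes. A difference of at least 2-fold between libraries was found in 5 of the 13 cytokines and in 3 of the 12 S100 genes, against 5.998% of expressed genes. *CXCL1*, a chemokine of neutrophils, led on both lengths with 313, 374 and 312 counts, and *IL6* had 2, 7 and 2. Of long noncoding RNAs in the table, *SNHG29* had the highest mean at 792 ± 86.4 CPM, followed by *NEAT1* at 581 ± 103, *NORAD* at 419 ± 17.1 and *MALAT1* at 283 ± 30.2 CPM. *HOTAIR*, transcribed from the HOXC cluster, had 29, 36 and 32 counts. Among regulators of DNA methylation, *DNMT1*, which copies methylation at replication, led on both lengths at 79.3 ± 8.55 CPM per kb, *DNMT3A* and *DNMT3B* were low at 0.753 ± 0.0558 and 2.76 ± 0.295, and the germ cell cofactor *DNMT3L* had no count. *ABCB5*, a transporter known from melanoma subpopulations, had no count in any library, while *ABCB1*, the multidrug transporter, had 63, 51 and 49 counts. Of the G protein genes, *GNAS* led its list on both lengths with 12319, 11527 and 16272 counts, and *GNAQ* and *GNA11*, known from melanoma of the eye, had 168, 113 and 150 counts and 288, 197 and 244 counts in turn.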
